A study of Mus musculus with 20 samples.

Results

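Chemokines that guide lymphocytes or act in resting tissue, together with a pair of receptors that remove chemokines, were followed through cultured mouse colon fibroblasts exposed to medium from tumour organoids. The 9 genes, taken by symbol and matched to their Ensembl identifiers among the 47729 listed, were Cxcl9, Cxcl10, Cxcl12, Cxcl14, Cxcl16, Cx3cl1, Ccl5, Ackr3 and Ackr4. The series addresses inflammatory fibroblasts and therapy resistance in rectal cancer. Its 20 libraries of polyadenylated RNA came from C57BL6/J colon fibroblasts grown in Advanced DMEM F12 with 10% serum, and they form 5 groups of 4. The groups were fibroblasts given irradiated APTKA medium, APTKA medium, irradiated APTK medium or APTK medium for 24 h, and untreated fibroblasts, which the labels call wild-type.

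APTKA and APTK are the names of the organoid lines that conditioned the medium, and the labels leave both unexpanded. The irradiated arms carried 5 fractions of 2 Gy, and whether organoids or fibroblasts received them is not stated. There was neither an irradiated untreated group nor a control with organoid medium that had not been conditioned. The labels do not tie replicates I to IV to separate cultures or animals, so the spread behind each p-value may be technical.

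Chemokines are secreted or membrane-tethered proteins that direct leukocyte migration through G protein-coupled receptors. CXCL9 and CXCL10 attract activated T cells and natural killer cells through CXCR3 and are textbook targets of interferon, while CCL5 attracts T cells and monocytes. CXCL16 and CX3CL1 (fractalkine) are made as transmembrane proteins that the proteases ADAM10 and ADAM17 can release, and their receptors are CXCR6 and CX3CR1. CXCL12, a constitutive stromal chemokine, signals through CXCR4, and CXCL14 is found in many resting tissues. The atypical receptors ACKR3 and ACKR4 bind chemokines and take them up without classical G protein signalling: ACKR3 removes CXCL12, and ACKR4 removes CCL19, CCL21 and CCL25. In the intestine, Ackr4 marks a population of submucosal fibroblasts.

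Of the 9 genes, 6 were abundant enough to be tested and 3 were close to zero. Cxcl10 was higher than in untreated fibroblasts with all 4 media, and Cxcl12 was lower with 3 of them. Cx3cl1 and Ackr4 differed in direction between the organoid lines: both were lower with the APTKA media and higher with the APTK media. Ackr3 was higher with the APTKA media, and Cxcl16 was higher with all 4 media and most so with the APTKA media. With irradiated medium, none of the 6 differed from the matching plain medium at the 5% false discovery rate.

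Cxcl10 is the member whose upstream sequence is shown, because both interferon and NF-kB signalling are known to act on it and genes of both pathways are described further on. The 250 bases before the start sites of Cxcl10 and its neighbour Cxcl9 (RefSeq, build GRCm38.p6) are printed 5′ to 3′ on the coding strand. Motif matches are in capitals. In the Cxcl10 window, chr5:92348890-92349139 (minus strand), the capitals mark 1 interferon-stimulated response element core (GAAANNGAAA) starting at -213 and 2 matches to the kappaB consensus starting at -159 and -103. The Cxcl9 window, chr5:92328080-92328329 (minus strand), had no match to these motifs or to the gamma-activated sequence TTCNNNGAA.
Cxcl10: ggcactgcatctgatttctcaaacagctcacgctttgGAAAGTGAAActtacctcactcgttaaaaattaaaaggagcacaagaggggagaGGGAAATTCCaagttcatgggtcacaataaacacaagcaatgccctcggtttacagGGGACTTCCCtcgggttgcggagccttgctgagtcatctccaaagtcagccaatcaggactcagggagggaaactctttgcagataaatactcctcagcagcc
Cxcl9: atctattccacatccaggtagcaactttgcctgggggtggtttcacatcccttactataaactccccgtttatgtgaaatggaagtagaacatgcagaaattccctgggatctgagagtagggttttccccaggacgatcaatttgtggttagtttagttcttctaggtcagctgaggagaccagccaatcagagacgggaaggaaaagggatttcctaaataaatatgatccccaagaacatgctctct
Both strands were searched from 250 bases before to 50 after the start, and the 3 matches in Cxcl10 share no base. Of 32851 such windows in the RefSeq table, 3.44% held the response element core, 4.51% the kappaB consensus and 8.30% the gamma-activated sequence. Windows were found for 7 of the 9 members. Besides Cxcl10, only Cxcl14 among these 7 held any of the motifs, with 1 response element core and 1 gamma-activated sequence. A match describes letters, not a bound factor.

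Levels per exon length set the members in order. Cxcl12 led in every group, with 12.3 ± 0.569 CPM per kb in irradiated APTKA medium, 14.0 ± 0.971 in APTKA medium, 12.2 ± 1.94 in irradiated APTK medium, 15.6 ± 1.65 in APTK medium and 18.4 ± 2.41 in untreated fibroblasts (CPM is the standard count scaled to library total, here divided by exon length in kb; SD, n = 4 each). Cxcl16 and Cxcl10 followed with the APTKA media, at 3.42 ± 0.418 and 3.29 ± 0.469 CPM per kb in APTKA medium. With the APTK media Ackr4 took the place after Cxcl12, at 6.96 ± 2.80 CPM per kb in irradiated APTK medium and 4.11 ± 0.503 in APTK medium, whereas it had 0.145 ± 0.0205 in APTKA medium. Cx3cl1 was the next most abundant member after Cxcl12 in untreated fibroblasts, at 2.19 ± 0.0732 CPM per kb.

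**Figure D1:**
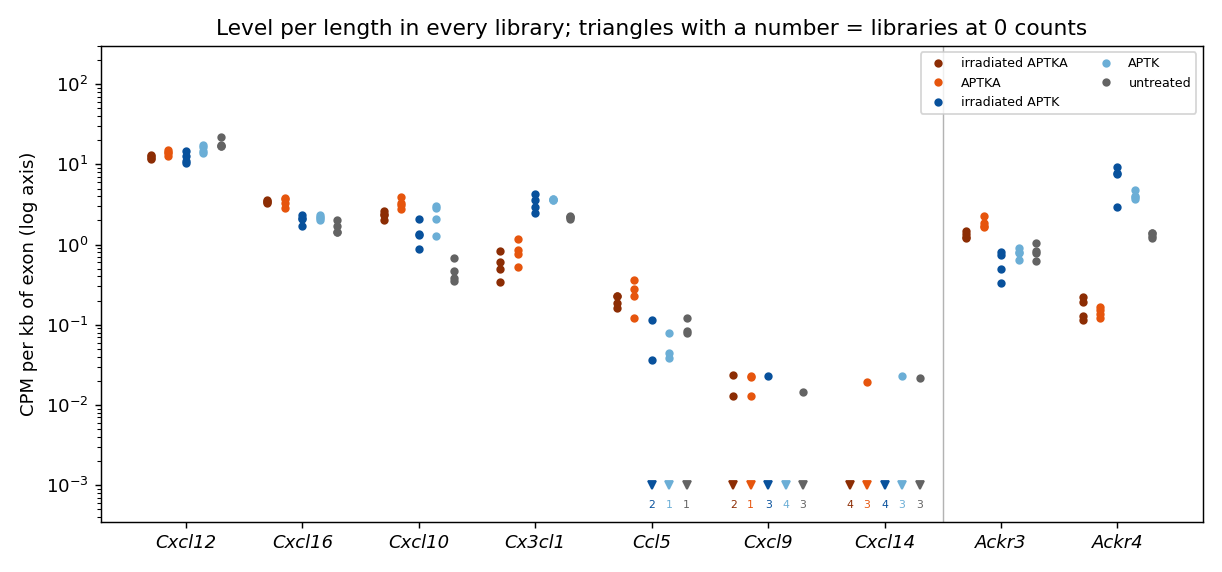
Level of the 9 genes in each of the 20 libraries, in CPM per kb of exon on a log axis, with ligands left of the grey line and receptors right of it. Each dot is a library, and triangles with a number give the libraries at 0 counts, which has no place on a log axis. Cxcl12 lies above the other ligands in every group, while Ackr4 is below 0.3 CPM per kb in every APTKA library and above 2 in every APTK library.

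Library totals ran from 17.3 to 31.6 M counts. In a principal component analysis the APTKA libraries split from all others along component 1 (56.4% of variance) and untreated libraries from the rest along component 2 (16.1%). Irradiated APTK IV lay at 34.3 on component 1, beside plain APTK libraries at 34.4 to 37.1 and outside the other irradiated APTK libraries at 29.2 to 31.2. Results for the irradiated APTK group are therefore given without that library as well, where this changes them. Because it was picked for its place beside plain APTK libraries, leaving it out favours a larger difference from them. Irradiated APTK II also stood apart, at -24.6 on component 2 against -17.8 to -19.7 for the rest of its group. It had the lowest total and the largest root mean square deviation from its group (0.320, against 0.268 for IV). The cells carried fibroblast markers at high level (Col1a1 at 6764 CPM or more in every library), while Cd3e was at 0 counts throughout and the 10 leukocyte and lymphocyte markers summed to at most 0.841 CPM. Over all libraries the 8 macrophage markers summed to 8.08 to 11.9 CPM, the 8 endothelial markers to 1.31 to 3.88 CPM and the 8 epithelial markers to 1.33 to 2.77 CPM. Among the macrophage markers, Adgre1 had at most 5 counts summed over a group, Cd14 was higher (1.78 ± 0.147) and Lyz2 lower (-1.54 ± 0.172) with APTKA medium than in untreated, and the part of these cells in the values of Cxcl10 and Ackr3, which are of a like level, was not tested. The 9 fibroblast markers summed to 29801 to 38814 CPM in irradiated APTKA, 28663 to 32766 in APTKA, 41947 to 51293 in irradiated APTK, 48291 to 53840 in APTK and 56028 to 63010 in untreated libraries. These sums are mostly Col1a1, Col1a2 and Col3a1, at 11957, 13576 and 26346 CPM in untreated. Gene by gene, all 9 were lower with APTKA medium than in untreated, where 61.4% of all genes tested passed in either direction. With APTK medium 3 were higher, among them Pdgfra (262.6 against 81.4 CPM), 1 was lower and 5 did not pass (43.4% of all genes tested did). The part of these shifts in the values of single members was not tested. In bulk RNA, fewer cells of a type and less RNA per cell cannot be told apart.

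Among the CXCR3 ligands, Cxcl10 (ENSMUSG00000034855, mm10 chromosome 5, 92346638 to 92348889) was the only one expressed at a level that could be tested. It had 5.26, 5.39, 5.94 and 4.62 CPM in the irradiated APTKA libraries I to IV and 6.32, 7.01, 7.48 and 8.82 CPM in the APTKA libraries. The irradiated APTK libraries had 3.08, 2.98, 2.00 and 4.68 CPM and the APTK libraries 2.92, 6.43, 6.84 and 4.75 CPM, against 1.52, 0.863, 0.781 and 1.05 CPM in untreated fibroblasts. Every library with conditioned medium thus lay above every untreated library, and APTK I stood below the rest of its group.

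The log2 fold change of Cxcl10 over untreated fibroblasts was 2.32 ± 0.280 with irradiated APTKA medium (edgeR quasi-likelihood test, adjusted p = 2.91e-07) and 2.81 ± 0.273 with APTKA medium (1.14e-08). It was 1.59 ± 0.306 with irradiated APTK medium (0.000240) and 2.31 ± 0.283 with APTK medium (1.02e-06; SE throughout). APTKA and APTK media did not differ past the threshold for Cxcl10 (log2 fold change 0.49, 95% interval 0.03 to 0.95, adjusted p = 0.0518), but did so without APTKA I, APTK II or III, irradiated APTK III or IV or untreated I (adjusted p down to 0.0168) and with no expression filter (0.00784). The irradiated media did, at 0.73 ± 0.240 (adjusted p = 0.0116), with overlapping groups and a call that was lost without irradiated APTK III (0.53, adjusted p = 0.0554). Ordered by mean, Cxcl10 ran from APTKA through irradiated APTKA, APTK and irradiated APTK medium to untreated, and of the neighbours in this order only irradiated APTK and untreated differed past the threshold. Of the exon bases of Cxcl10, 133 (5.91%) lie under Art3 on the opposite strand. Art3 itself averaged 0.747 ± 0.0814 CPM in APTKA medium, 0.901 ± 0.213 CPM in APTK medium and 0.439 ± 0.115 CPM in untreated fibroblasts, below Cxcl10 in each of these groups, and without a known strand setting reads in the shared bases cannot be assigned.

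Cxcl9 (ENSMUSG00000029417), which lies 18.6 kb from Cxcl10 on the same strand (92321347 to 92328079), was barely detected. Summed over 4 libraries it had 3 counts in irradiated APTKA, 5 in APTKA, 2 in irradiated APTK, 0 in APTK and 1 in untreated, where 0 counts allow up to 0.0291 CPM in the APTK group. Cxcl11, the other CXCR3 ligand, had 56 counts in irradiated APTKA, 22 in APTKA, 0 in irradiated APTK, 1 in APTK and 0 in untreated, also under the expression filter. Its receptor gene Cxcr3 had 0 counts in all 20 libraries. So the transcript of 1 CXCR3 ligand out of 3 was present beyond a few counts per library with the APTK media.

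Ccl5 (ENSMUSG00000035042, chromosome 11, 83525778 to 83530518), a T cell and monocyte attractant, was also under the filter. Its counts in libraries I to IV were 6, 7, 4 and 5 in irradiated APTKA and 8, 10, 5 and 3 in APTKA, then 2, 0, 1 and 0 in irradiated APTK, 0, 2, 1 and 1 in APTK, and 2, 0, 3 and 2 in untreated. On the CPM scale both APTKA groups lay above untreated and above their APTK counterparts without overlap. For APTKA against untreated the gap was 0.1176 CPM in APTKA IV against 0.1172 CPM in untreated III. Both of these had 3 counts, so library scaling alone set them apart. The share of all genes without overlap was not computed for these comparisons. The ratio of summed, scaled counts was 3.50 for APTKA over untreated (exact 95% counting interval 1.48 to 9.55) and 6.28 for APTKA over APTK (2.18 to 24.8), intervals that cover counting error only. These comparisons, and those of irradiated APTKA with untreated and with irradiated APTK, reached the smallest p that an exact two-sided permutation test can give with 4 against 4 libraries, 0.0286, and none of the 4 passed after adjustment over 24 such tests (adjusted p = 0.171). For APTKA against untreated that smallest p rests on the gap between the libraries with 3 counts each. When no expression filter was applied, edgeR's adjusted p was 0.0308 for APTKA against untreated and 0.00305 for APTKA against APTK, with 0.104 and 0.0131 for the irradiated counterparts.

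**Figure D2:**
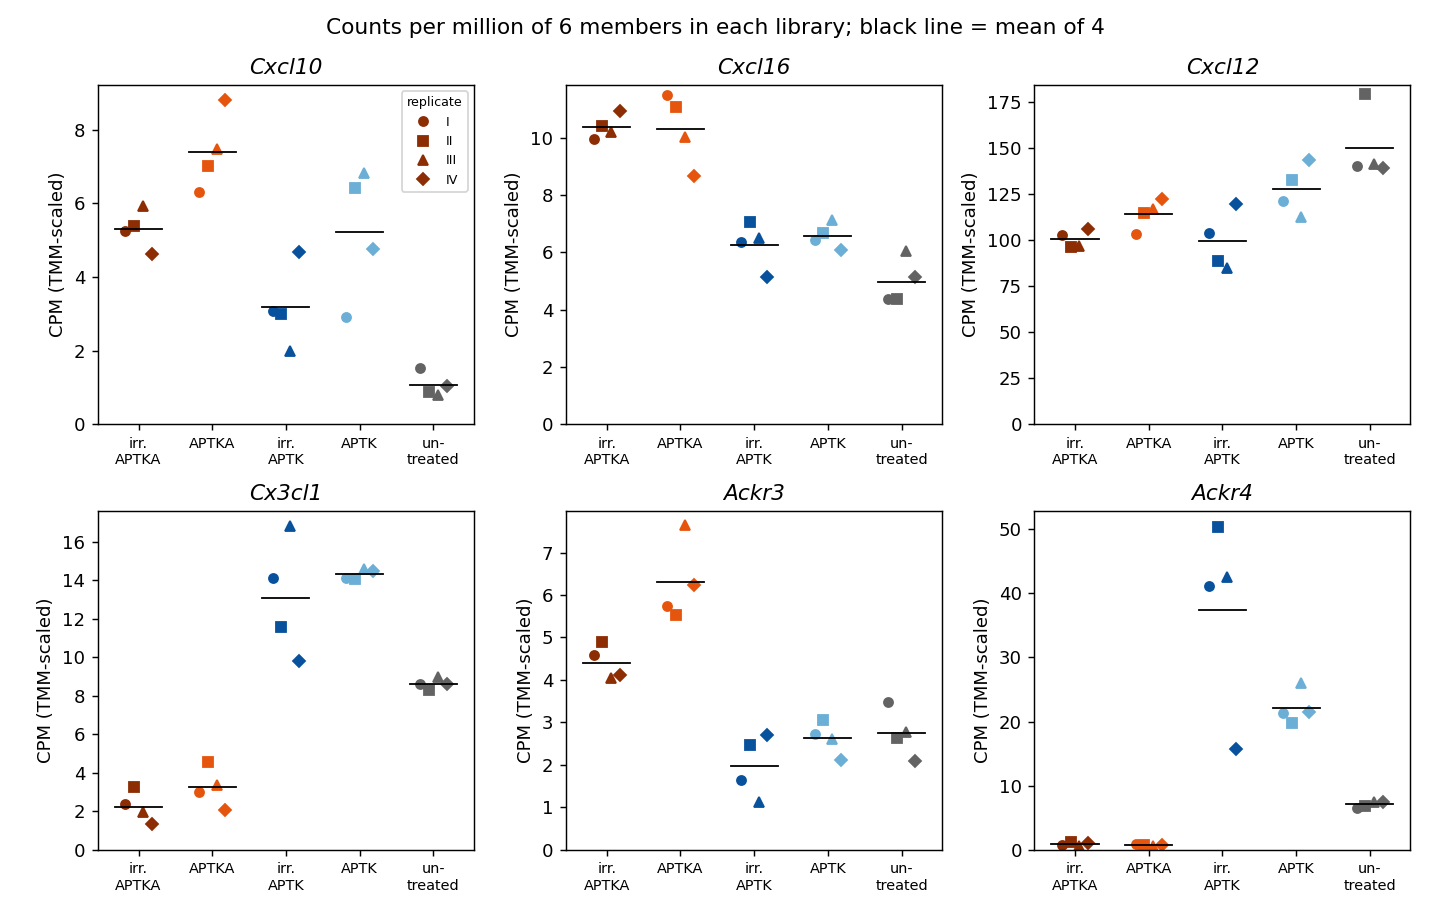
CPM of the 6 tested genes in each library, scaled by TMM library totals, with 1 panel per gene and the groups along the horizontal axis. Symbols mark replicates I to IV and black lines the mean of 4. Cxcl10 is above untreated with every medium, and Cx3cl1 and Ackr4 lie below untreated with the APTKA media and above it with the APTK media.

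The transmembrane ligands went different ways. Cxcl16 (ENSMUSG00000018920, chromosome 11, 70453983 to 70459984) had 9.98, 10.4, 10.2 and 10.9 CPM in irradiated APTKA and 11.5, 11.1, 10.1 and 8.67 CPM in APTKA libraries. It had 6.38, 7.05, 6.49 and 5.15 CPM in irradiated APTK and 6.45, 6.69, 7.13 and 6.07 CPM in APTK libraries, against 4.36, 4.36, 6.05 and 5.15 CPM in untreated ones. The APTKA groups stood clear of all others, and the APTK group only just cleared the highest untreated library.

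For Cxcl16 the log2 fold change over untreated was 1.06 ± 0.113 with irradiated APTKA medium (adjusted p = 5.26e-09) and 1.05 ± 0.113 with APTKA medium (6.06e-09). It was 0.32 ± 0.121 with irradiated APTK medium (0.0328) and 0.40 ± 0.118 with APTK medium (0.00683). The call for irradiated APTK medium came with overlapping groups and was lost without irradiated APTK I, II or III or untreated I or II (log2 fold change down to 0.26, adjusted p up to 0.112). APTKA medium exceeded APTK medium by 0.65 ± 0.110 (9.64e-06), and irradiated APTKA exceeded irradiated APTK medium by 0.74 ± 0.112 (2.20e-06). Zmynd15 shares 552 bases (18.3%) of the Cxcl16 exons on the opposite strand and rose with APTKA medium too (1.97 ± 0.321, adjusted p = 5.98e-06). Its own level was 1.02 ± 0.161 CPM with APTKA medium and 0.261 ± 0.131 CPM in untreated, below that of Cxcl16 in both groups (10.3 ± 1.26 and 4.98 ± 0.808 CPM), and reads in the shared bases cannot be assigned.

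Cx3cl1 (ENSMUSG00000031778, chromosome 8, 94772009 to 94782427) fell with the APTKA media and rose with the APTK media. Its values were 2.38, 3.25, 1.94 and 1.33 CPM in irradiated APTKA and 2.99, 4.56, 3.35 and 2.08 CPM in APTKA libraries. They were 14.1, 11.6, 16.8 and 9.80 CPM in irradiated APTK and 14.1, 14.0, 14.6 and 14.5 CPM in APTK libraries, against 8.60, 8.28, 8.98 and 8.59 CPM in untreated. The 3 levels did not overlap, and the irradiated APTK libraries were the most spread.

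On the log2 scale Cx3cl1 was at -1.93 ± 0.214 with irradiated APTKA medium (adjusted p = 8.26e-08) and -1.40 ± 0.205 with APTKA medium (4.18e-06), both against untreated. It was at 0.61 ± 0.181 with irradiated APTK (0.00990) and 0.73 ± 0.179 with APTK medium (0.00218). Without irradiated APTK III the value for irradiated APTK was 0.45 and no longer passed (adjusted p = 0.0516). Between the lines the difference was -2.13 ± 0.199 for APTKA against APTK medium (5.73e-09) and -2.54 ± 0.210 for irradiated APTKA against irradiated APTK medium (9.51e-10). The receptor genes of these ligands were not expressed at a testable level: Cxcr6 reached at most 0.411 CPM and Cx3cr1 at most 0.547 CPM in any library.

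Genes for release and desensitisation were taken from a list of 12 sheddases, their regulators, a clipping protease, arrestins and receptor kinases, of which 10 were tested. With APTKA medium 4 were higher and 6 lower than in untreated, with a median log2 fold change of -0.31 against 0.00 over all genes tested. Of all genes tested, 61.4% passed in that comparison. Adam10, the sheddase of both transmembrane ligands, was lower (-0.78 ± 0.0590), Adam17 was higher by 0.13 ± 0.0534 (adjusted p = 0.0337), and Timp3, an inhibitor of both proteases, had 53.0 ± 1.05 CPM with APTKA medium against 383.6 ± 30.8 CPM in untreated (-2.86 ± 0.0600). With APTK medium 3 were higher and 5 lower, with a median of -0.02, where 43.4% of all genes tested passed. There Arrb1, an arrestin gene, was higher by 0.88 ± 0.0720 and Timp3 lower (-1.52 ± 0.0566).

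Cxcl12 (ENSMUSG00000061353, chromosome 6, 117168535 to 117181367), the most abundant member, had the narrowest span of group means on the log2 scale among the 6 tested genes. It had 102.8, 96.3, 97.0 and 106 CPM in irradiated APTKA and 103.5, 114.6, 117 and 122.3 CPM in APTKA libraries. It had 103.7, 88.8, 85.1 and 119.9 CPM in irradiated APTK and 121.6, 133, 112.8 and 143.8 CPM in APTK libraries, against 140.5, 179.8, 141.6 and 139.1 CPM in untreated. All libraries with conditioned medium except APTK IV were below the lowest untreated one.

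The log2 fold change of Cxcl12 over untreated was -0.58 ± 0.0994 with irradiated APTKA (adjusted p = 3.21e-05), -0.39 ± 0.0992 with APTKA (0.00165) and -0.60 ± 0.100 with irradiated APTK medium (5.51e-05). With APTK medium it was -0.23 (95% interval -0.44 to -0.02, adjusted p = 0.0622), which passed without APTK IV, irradiated APTK III or irradiated APTK IV (adjusted p down to 0.0263) and with DESeq2 (0.0378), with no filter (0.0136) and with the replicate number as a block (0.0330). Untreated II was the high library of its group, and without it these 4 values were -0.48, -0.30, -0.50 and -0.14, the first 3 of which still passed. The lines did not differ past the threshold, at -0.16 for APTKA against APTK (interval -0.37 to 0.05) and 0.02 for the irradiated media (interval -0.20 to 0.23).

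The place of Cxcl12 among all chemokine transcripts moved more than its own level. Summed over 38 ligand genes, CPM per kb came to 812.2 ± 82.8 in irradiated APTKA, 948.6 ± 57.4 in APTKA, 240.2 ± 52.7 in irradiated APTK, 206.1 ± 9.96 in APTK and 163.4 ± 8.54 in untreated. Of this sum, Cxcl12 made up 1.53, 1.48, 5.44, 7.61 and 11.2% in the same order of groups, and the 7 member ligands together 2.34, 2.30, 8.40, 11.6 and 13.9%. Ccl2 and Ccl7, monocyte attractants, made up 81.5, 83.1, 84.9, 79.0 and 77.9%. Per exon length, the member ligands were thus a minor part of the chemokine transcripts in every group, and the smallest part with the APTKA media. These shares depend on the division by exon length, which is 8.18 kb for Cxcl12. In CPM not divided by length, Cxcl12 had 150.2 in untreated against 40.6 for Ccl2 and 73.4 for Ccl7. With APTKA medium the values were 114.4, 366.6 and 373.2 CPM. Cxcl14 (ENSMUSG00000021508, chromosome 13, 56288643 to 56296551) had 0 counts in irradiated APTKA, 1 in APTKA, 0 in irradiated APTK, 1 in APTK and 1 in untreated, where 0 counts allow up to 0.0264 CPM in irradiated APTKA and 0.0334 CPM in irradiated APTK.

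**Figure D3:**
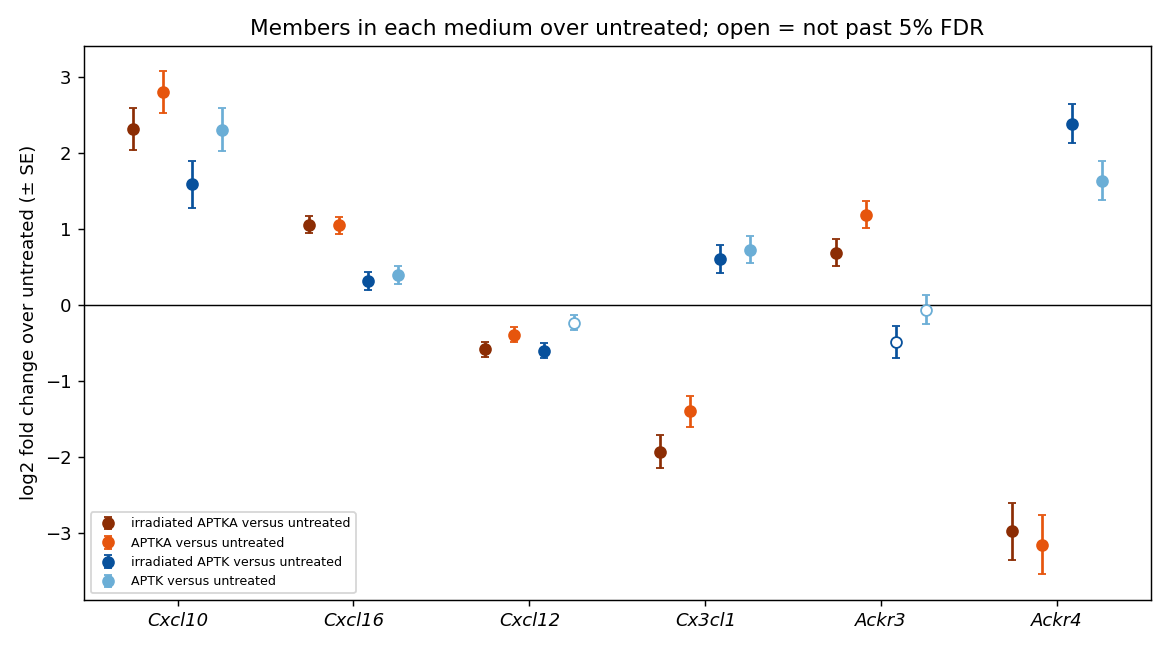
Log2 fold change over untreated fibroblasts of the 6 tested genes with each of the 4 media, with bars of 1 SE and open symbols for values not past the 5% false discovery rate. Cxcl10 and Cxcl16 are above zero with every medium, Cxcl12 is below zero with every medium, and Cx3cl1 and Ackr4 have opposite signs with the APTKA and APTK media. The 4 comparisons share the untreated libraries.

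The scavenging receptors also separated the organoid lines, in opposite directions. Ackr3 (ENSMUSG00000044337, chromosome 1, 90203980 to 90216751), which takes up CXCL12, had 4.58, 4.89, 4.03 and 4.12 CPM in irradiated APTKA and 5.75, 5.54, 7.66 and 6.24 CPM in APTKA libraries. It had 1.65, 2.47, 1.12 and 2.69 CPM in irradiated APTK and 2.73, 3.06, 2.60 and 2.12 CPM in APTK libraries, against 3.48, 2.63, 2.77 and 2.09 CPM in untreated. The APTKA groups lay above all other libraries, and the remaining groups overlapped one another.

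Against untreated, Ackr3 was higher by 0.69 ± 0.181 with irradiated APTKA (adjusted p = 0.00174) and by 1.19 ± 0.176 with APTKA medium (1.41e-06). It was at -0.49 with irradiated APTK medium (95% interval -0.93 to -0.04, adjusted p = 0.0613) and at -0.06 with APTK medium (interval -0.47 to 0.36, adjusted p = 0.844). The value for irradiated APTK medium passed without irradiated APTK II, irradiated APTK IV or untreated IV (adjusted p down to 0.0101) and with no filter (0.0264). APTKA exceeded APTK medium by 1.25 ± 0.176 (7.04e-07), and the irradiated media differed by 1.17 ± 0.195 (8.53e-06). Set against its ligand, the ratio of Cxcl12 to Ackr3 CPM per kb was 9.41 ± 1.05 in irradiated APTKA, 7.53 ± 0.966 in APTKA, 22.4 ± 7.35 in irradiated APTK, 20.4 ± 4.90 in APTK and 23.2 ± 5.44 in untreated, and all 8 libraries with APTKA media lay below the other 12.

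Ackr4 (ENSMUSG00000079355, chromosome 9, 104084157 to 104126933) spanned the widest range of the 6 tested members on the log2 scale, with group means 5.33 apart. It had 0.684, 1.18, 0.621 and 1.04 CPM in irradiated APTKA and 0.908, 0.736, 0.653 and 0.824 CPM in APTKA libraries. It had 41.1, 50.4, 42.5 and 15.7 CPM in irradiated APTK and 21.3, 19.7, 26.0 and 21.5 CPM in APTK libraries, against 6.56, 6.90, 7.42 and 7.43 CPM in untreated. Untreated libraries lay between the lines without overlap, and irradiated APTK IV was below all APTK libraries while I to III of its group were above them.

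The log2 fold change of Ackr4 over untreated was -2.98 ± 0.374 with irradiated APTKA (adjusted p = 2.21e-06) and -3.16 ± 0.389 with APTKA medium (1.68e-06). It was 2.39 ± 0.255 with irradiated APTK (8.74e-07) and 1.64 ± 0.256 with APTK medium (5.64e-05). The lines differed by -4.81 ± 0.352 for APTKA against APTK (2.19e-09) and by -5.37 ± 0.335 for the irradiated media (2.94e-10). Acad11 overlaps 479 bases (8.90%) of the Ackr4 exons on the opposite strand and moved far less between lines (-0.15 ± 0.0539 for APTKA against APTK). Acad11 was at 43.3 ± 2.18 CPM with APTKA and 48.0 ± 1.77 CPM with APTK medium, more than the Ackr4 values with APTKA medium, so some of the few Ackr4 counts there cannot be told from Acad11 reads.

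Among the listed genes for ligands that ACKR4 removes, only Ccl25 had counts, and no other gene copy of these ligands was looked at. Ccl19 and Ccl21a had 0 counts in all 20 libraries, and Ccl25 lay between 3.24 and 6.35 CPM. Ccl25 was higher by 0.46 ± 0.135 with APTK medium (adjusted p = 0.00689) and was at 0.25 ± 0.137 with APTKA medium (0.109), both against untreated. Among the other submucosal and adventitial fibroblast markers listed beside Ackr4, Grem1, a BMP antagonist gene, was higher by 0.53 ± 0.0662 with APTKA and by 0.18 ± 0.0661 with APTK medium, and Cd81 was lower with both (-0.45 ± 0.0525 and -0.26 ± 0.0524). Ly6a, a surface antigen gene, was lower with APTKA medium (-2.01 ± 0.154) and was at 0.11 ± 0.131 with APTK medium (adjusted p = 0.523). Dpt, a matrix protein gene, was lower with both (-0.81 ± 0.0900 and -2.05 ± 0.0957), and Cd34, a surface glycoprotein gene, was higher with both (0.20 ± 0.0818 and 0.76 ± 0.0822). Of the 6 of 8 such markers that were tested, Ackr4 included, 2 were higher and 4 lower with APTKA medium, and 3 were higher and 2 lower with APTK medium. So some of these markers had the sign of Ackr4 and others the opposite sign with each medium. Over all genes tested, 61.4% passed with APTKA and 43.4% with APTK medium.

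These 6 genes were read against the rest of the transcriptome, where many genes changed with the media. Against untreated, all 6 tested members passed with irradiated APTKA medium where 61.0% of the 14820 tested genes did, all 6 with APTKA medium (61.4%), 5 of 6 under irradiated APTK (43.6%) and 4 under APTK medium (43.4%). Between lines, 5 passed for the irradiated media (61.3%) and 4 for APTKA against APTK (62.9%). Such shares are high in the background, and the filter kept members in part because they were expressed in some group, so the counts describe these genes and carry no more weight than that. Their median log2 fold change was 0.33 with APTKA and 0.57 with APTK medium, against 0.00 over all genes tested in both. Of the 14820 genes, 4668 were higher and 4428 lower with APTKA medium than in untreated. With APTK medium 3099 were higher and 3334 lower.

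The remaining chemokine ligands moved mostly one way with APTKA medium. Of 31 on a list, 13 were tested, and 9 were higher and 1 lower with APTKA medium than in untreated (median 2.19), whereas 7 were higher and 1 lower with APTK medium (median 0.45). The shares of all genes tested that passed in either direction were 61.4% and 43.4%. Cxcl1, a neutrophil attractant gene, averaged 91.4 ± 7.83 CPM with APTKA and 7.72 ± 0.667 CPM with APTK medium, against 3.24 ± 0.208 CPM in untreated. Cxcl2, of the same group, had 1293 counts with APTKA and 10 with APTK medium against 0 in untreated. Among 21 other receptor genes only 2 were tested, and Ccrl2, an atypical receptor that binds chemerin, was higher with APTKA (2.33 ± 0.227) and with APTK medium (1.27 ± 0.254). Cxcr4, the signalling receptor of CXCL12, had at most 3 counts in any library.

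Genes of interferon signalling changed in both directions with each line. Of 16 tested genes of interferon signalling, 3 were higher and 8 lower with APTKA medium, but 8 were higher and 3 lower with APTK medium, with medians of -0.09 and 0.19. Over all genes tested, 61.4% passed with APTKA and 43.4% with APTK medium. Of those that passed, 51.3% and 48.2% were higher. Stat2, a transcription factor gene of the type I interferon response, averaged 22.65 ± 3.58 CPM with APTKA and 121.0 ± 24.2 CPM with APTK medium, against 51.0 ± 2.66 CPM in untreated (log2 fold change -1.18 ± 0.171 and 1.25 ± 0.161). Usp18, a feedback inhibitor (-1.28 ± 0.346 and 1.20 ± 0.307), had the same signs. Others did not follow these 2 genes. Tyk2, a receptor-associated kinase gene, was higher with APTKA medium (0.32 ± 0.0603) and at 0.10 ± 0.0606 with APTK medium (adjusted p = 0.194), and Irf3, a transcription factor gene upstream of interferon, was higher with both (0.27 ± 0.0518 and 0.32 ± 0.0518). Ifngr2, a receptor subunit gene for interferon gamma, was lower with both (-0.14 ± 0.0464 and -0.41 ± 0.0467), and Jak1, a kinase gene, was at -0.03 ± 0.0544 with APTKA (adjusted p = 0.612) and lower with APTK medium (-0.20 ± 0.0545). Ifng had 0 counts throughout, and Ifnb1 had 1 count in irradiated APTKA, 1 in APTKA, 5 in irradiated APTK, 8 in APTK and 2 in untreated.

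Genes of NF-kB signalling were mostly higher with APTKA medium. Of 14 subunit and feedback genes, all tested, 12 were higher and 0 lower with APTKA medium (median 0.97; the other 2 did not pass), while 4 were higher and 3 lower with APTK medium (median -0.06). Among all genes tested, 61.4% passed with APTKA and 43.4% with APTK medium, in either direction. Tnfaip3, an inhibitor induced by NF-kB, averaged 116.9 ± 11.8 CPM with APTKA and 7.33 ± 0.797 CPM with APTK medium, against 5.91 ± 0.421 CPM in untreated. Relb, a subunit gene, was higher with APTKA (0.98 ± 0.0904) and lower with APTK medium (-0.63 ± 0.0959), as was Nfkbib, an inhibitor gene (0.74 ± 0.0989 and -0.55 ± 0.107). Nfkbiz and Bcl3, genes of nuclear inhibitor-like proteins, were higher with APTKA (1.66 ± 0.0866 and 2.00 ± 0.170) and with APTK medium (0.63 ± 0.0871 and 0.62 ± 0.186). The upstream window of Cxcl10 holds letters of both motif kinds, and the part of either pathway was not tested.

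**Figure D4:**
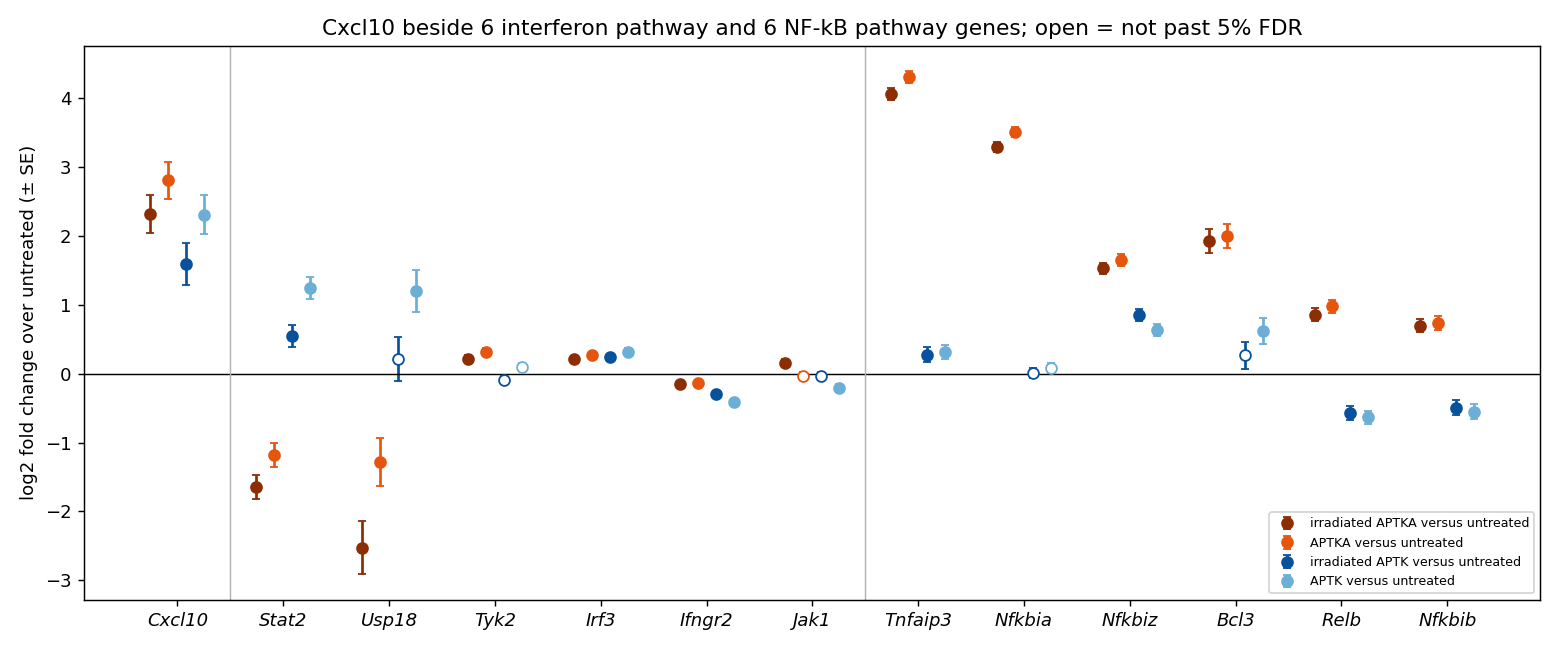
Log2 fold change over untreated fibroblasts of Cxcl10, of 6 interferon pathway genes and of 6 NF-kB pathway genes with each medium, with bars of 1 SE and open symbols for values not past the 5% false discovery rate. Cxcl10 is above zero with all 4 media. Stat2 and Usp18 are below zero with both APTKA media and above it with APTK medium, Irf3 is above and Ifngr2 below zero with all 4 media, and Nfkbia and Tnfaip3 are above 3 with the APTKA media only.

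Irradiation was assessed within each line. No member passed between irradiated APTKA and APTKA medium with edgeR, where 0.729% of all genes tested did. At an unadjusted p under 0.05 there were 3 members, and DESeq2 also called 0. Cxcl10 was at -0.48 (95% interval -0.94 to -0.03, adjusted p = 0.351), Cx3cl1 at -0.53 (-1.04 to -0.03, adjusted p = 0.353) and Ackr3 at -0.51 (-0.85 to -0.16, adjusted p = 0.160). The irradiated libraries of Cxcl10 and Ackr3 lay below the plain ones without overlap, which was so in either direction for 10.5% of all genes. Fitted on these 2 groups alone, Cxcl10 (-0.49, adjusted p = 0.0185), Cxcl12 (-0.20, 0.0362) and Ackr3 (-0.51, 0.0188) passed, and with no filter Ackr3 did (0.0308). Cxcl16 was at 0.01 (-0.22 to 0.23) and Ackr4 at 0.18 (-0.97 to 1.34), an interval that reaches past a 2-fold rise.

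No member passed between irradiated APTK and APTK medium either, where 1.38% of genes did, with 3 at an unadjusted p under 0.05 and 1 called by DESeq2 (Cxcl12). The values were 0.75 for Ackr4 (95% interval 0.26 to 1.24, adjusted p = 0.119), -0.72 for Cxcl10 (-1.24 to -0.20, adjusted p = 0.141) and -0.36 for Cxcl12 (-0.58 to -0.15, adjusted p = 0.0754). With all libraries but no filter, Cxcl10 (-0.73, adjusted p = 0.00921) and Cxcl12 (-0.37, 0.000195) passed, and with the replicate number as a block Cxcl12 did (-0.36, 0.0470). Single libraries also changed these calls. Without irradiated APTK IV, Ackr4 was at 1.01 (adjusted p = 9.96e-08), Cxcl10 at -1.0 (0.0127) and Cxcl12 at -0.47 (0.00263), and 1271 genes were called, against 205 with all libraries. That library was picked for lying beside the plain APTK libraries, the reference here. Leaving it out therefore favours a larger difference, and these p-values cannot be read as a test of irradiation. Without irradiated APTK II instead, 122 genes were called and Ackr4 was at 0.57. Cxcl10 also passed without APTK I (-0.92, adjusted p = 0.0231) and Cxcl12 without untreated II (-0.36, 0.0387), while the genes called were 32 without APTK III. Beside these values, 4 of 16 interferon signalling genes were lower and 0 higher with irradiated APTK medium, against 8 lower and 1 higher without irradiated APTK IV. The count of lower genes was 0 without irradiated APTK I or III and with only the groups compared, 1 without irradiated APTK II or APTK II, III or IV, and 2 without irradiated APTKA III or IV or untreated II or III. Stat2 was at -0.70 ± 0.159 (adjusted p = 0.0398). With a library left out its adjusted p ran from 0.00528 without APTK I to 0.132 without APTK III. It was 0.0032 with DESeq2 and 0.231 with only the groups compared.

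The irradiation effects in the 2 lines were compared directly. For none of the 6 members did they differ past the threshold, by edgeR or DESeq2 and also at an unadjusted p under 0.05 (0.182% of all genes passed with edgeR). The difference, APTKA minus APTK, was 0.24 for Cxcl10 (95% interval -0.45 to 0.93) and -0.56 for Ackr4 (-1.84 to 0.71), and for Ackr4 it was -0.83 without irradiated APTK IV (adjusted p = 0.0867). Both intervals include 0 and reach values of either sign.

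**Figure D5:**
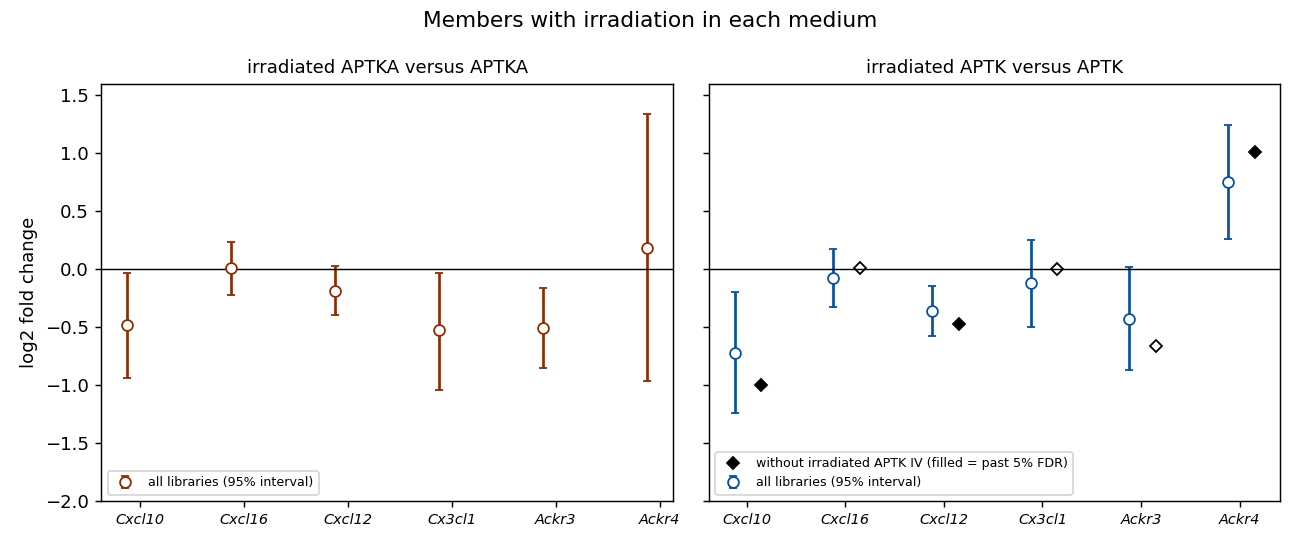
Log2 fold change of the 6 tested genes for irradiated against plain medium, with APTKA at left and APTK at right, and bars of the 95% interval. Open circles are values not past the 5% false discovery rate, and diamonds in the right panel are the values without irradiated APTK IV, filled where they passed. Ackr4, Cxcl10 and Cxcl12 have filled diamonds, at 1.01, -1.0 and -0.47. Irradiated APTK IV was picked for lying beside plain APTK libraries, so leaving it out favours a larger difference.

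Genes with the most similar profile were sought for the 5 members whose group means spanned at least 1 on the log2 scale. Likeness was the root mean square difference between log2 CPM profiles over the 20 libraries, each centred on its own mean, among 12813 tested genes. Cx3cl1 was most like Sfrp1 (0.27), Islr (0.29) and Frzb (0.31), where Sfrp1 and Frzb encode secreted Wnt antagonists. Among the genes most like Ackr4 were Abca8a (0.46) and Frem1 (0.60). Cxcl10 was most like Cln3 (0.44), Pdlim4 (0.46) and Rasl12 (0.47). Cxcl16 had Pym1 (0.14), Rlf (0.15) and Ptprj (0.15) nearest, and Ackr3 had Mecom, Sept3 and Zfp105 (0.30 each). The members' own root mean square deviations about their means were 1.13 for Cx3cl1, 2.26 for Ackr4, 1.02 for Cxcl10, 0.44 for Cxcl16 and 0.66 for Ackr3. These profiles follow the 5 groups and share libraries and depth, so they describe likeness and nothing further.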

How the data were processed

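The authors deposited 1 table of raw gene counts per library. The tools listed in the submitters' processing notes are featureCounts (1.5.0-p1), STAR (2.5.2a) and bcl2fastq (2.20.0.422), with mm10 as the build. Annotation release and strand setting: not given in the sources used here. Symbols, exon lengths and coordinates came from GENCODE for GRCm38, which named 47310 of 47729 identifiers.

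Counts were analysed in R 4.3.3 with edgeR 4.0.16 (quasi-likelihood test, TMM scaling, robust dispersion, default filter by group, 5 group means over 20 libraries, 15 residual degrees of freedom), which left 14820 genes. The Benjamini-Hochberg adjustment ran over these genes, with a threshold of 5%. SE was |log2 fold change| divided by √F; intervals use t with 15 degrees of freedom. CPM used TMM-scaled totals, and levels per length union exon lengths. Members under the filter were tested with an exact permutation test on CPM. Steps were tested on simulated data. Lists were described by counts and medians only, and no set test was run.

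Named were all 9 members and, per list and main comparison, up to 2 genes called higher and 2 lower with the largest change at a mean of at least 1 CPM, plus receptors of member ligands, Cxcl11, Cxcl13, genes overlapping a member, and the 3 nearest profiles. Genes outside this rule are named for their role or depth, and some genes that it names are not reported here. The members and lists were chosen with earlier results of these data known. Totals were 17.3 to 31.6 M counts. Floors (3 counts over a group) and counting intervals cover counting error only. In 30 replicate pairs, chi-square per degree of freedom was 4.45 to 79.9, so each library was counted once. Alternatives were RLE and upper quartile scaling, no filter, DESeq2 1.42.0, a replicate block, only the groups compared, and each library left out.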

Additional observations from a re-analysis of the deposited data

Results flagged for a closer look

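Among 30 sets of 4 libraries (6 tested members in 5 groups), 1 had a library far from the others. Cxcl12 was at 179.8 CPM in untreated II, while the other untreated libraries lay between 139.1 and 141.6 CPM. The gap to the nearest library was 0.938 of the group's range, above Dixon's 95% critical value for 4 samples. Chance flags about 1 in 20 such groups. Without untreated II, Cxcl12 was at -0.48 with irradiated APTKA, -0.30 with APTKA, -0.50 with irradiated APTK and -0.14 with APTK medium on the log2 scale against untreated.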

How the results depend on the processing

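Of 54 member results, 30 were called. Of these, 27 kept their direction and call under all 26 alternatives, and 3 lost the call under at least one: Cxcl16 and Cx3cl1 for irradiated APTK against untreated and Cxcl10 for irradiated APTKA against irradiated APTK. Cxcl16 in the first of these also lost it with DESeq2 (0.31, adjusted p = 0.0506) and with only the groups compared (0.32, 0.1001). Of 24 uncalled results, 15 were never called. The causes were not tested.

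Counts for irradiation moved most. For irradiated APTKA against APTKA, irradiated APTK against APTK and the difference of their effects, main counts of genes were 108, 205 and 27. No filter gave 316, 492 and 209, and DESeq2 291, 423 and 110. Only the groups compared gave 512 and 10 for the first 2. One library left out gave 34 (without APTKA III) to 294 (without irradiated APTK II), 32 (without APTK III) to 1271 (without irradiated APTK IV) and 4 (without APTKA II) to 307 (without irradiated APTK IV), and moved by over 1.5 times in 8, 7 and 11 of 20 such fits. Members called went from 0 to 1 with no filter and 3 with only the groups compared (irradiated APTKA against APTKA), and from 0 to 2 with no filter, 1 with DESeq2 and 0 to 3 with a library left out (irradiated APTK against APTK). For irradiated APTK against untreated they were 3 to 6 with a library left out.

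Replicate numbers did not pair the libraries (correlations of 32 same-number pairs -0.108 to 0.0959). With the replicate block, 1 member was called for irradiated APTK against APTK, Cxcl12 (-0.36, adjusted p = 0.0470), and Cxcl12 passed for APTK against untreated (-0.24, 0.0330).

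Reversals were of uncalled values near zero. Upper quartile scaling gave -0.06 for Cxcl12 (irradiated APTKA against irradiated APTK) and -0.01 for Cxcl16 (irradiated APTKA against APTKA), and for Cxcl16 it was -0.005 with only the groups compared. With a library left out the ranges were -0.05 to 0.12 and -0.07 to 0.06 for these 2, and -0.00099 to 0.31 for Ackr4 in irradiated APTKA against APTKA. They were -0.15 to 0.01 for Cxcl16 and -0.28 to 0.00069 for Cx3cl1 in irradiated APTK against APTK, -0.17 to 0.08 for Ackr3 in APTK against untreated, and -0.31 to 0.15 for Ackr3 and -0.0013 to 0.15 for Cxcl16 in the difference of effects. Upper quartile scaling moved the share of higher calls from 62.0 to 50% for irradiated APTKA against APTKA. Depth limits Cxcl9, Cxcl14 and Ccl5, which had at most 10 counts in a library.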
